A study of Mus musculus with 8 samples.

Results

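The microRNAs (miRNAs) of the imprinted Dlk1-Dio3 domain were followed in mouse skeletal muscle. They were taken by name: every mouse probe row whose miRNA number belongs to a list of 43 numbers of the domain, which gave 68 of the 567 mouse miRNA names on the array. Of the 68, 13 were detected on at least 1 of 8 arrays, 10 were detected on at least 4 arrays and could be tested, and 55 were detected on 0 arrays. Detection here means that 1 or more probes of the miRNA had 50% or more of their spots well above background. The study compared obese diabetic C57BL/KsJ db/db mice, which lack a working leptin receptor, with C57BL/KsJ db+ controls. It used 4 one-colour Agilent arrays per group, each with 100 ng of Cy3-labelled muscle RNA. Groups follow the titles and the group entries; the strain entries give db/db to the control and db+ to the diabetic samples, opposite to the design text, so every direction here is "arrays labelled diabetic minus arrays labelled control". The labels give no age, no sex, no named muscle and no statement that each array came from a separate animal, so p-values measure the spread between these 8 samples only. The control arrays lay in one slide row and the diabetic arrays in the other, so that a difference of group and one of slide row cannot be told apart.

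The domain on the distal part of mouse chromosome 12 is expressed by parent of origin. The paternal copy makes the mRNAs of Dlk1, Rtl1 and Dio3, while the maternal copy makes the long non-coding RNAs Meg3, Rian and Mirg and the many miRNA hairpins spliced out of or processed from them. In muscle the domain is best known from the callipyge sheep, in which a mutation between Dlk1 and Meg3 gives enlarged hindquarters, and its miRNAs are abundant in fetal muscle and in satellite cells, the resident stem cells of the fibre. In adults many of them are also rich in brain.

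All 43 hairpins that could be matched to the RefSeq table of assembly GRCm38.p6 lay on the plus strand of chromosome 12; they carry 65 of the 68 names. In that order, 10 hairpins with 19 names lie between the start of Meg3 and the start of Rian, 2 lie within Rian, and 31 hairpins with 44 names lie after Rian, up to the end of Mirg. Detected names numbered 5 of 19 in the first stretch, 0 of 2 within Rian and 8 of 44 in the last, against 165 of all 567 mouse names. In the first stretch these were miR-337-5p, miR-337-3p, miR-127, miR-434-3p and miR-136, several of which lie opposite the Rtl1 gene. In the last they were miR-379, miR-299*, miR-329, miR-494, miR-376c, miR-300, miR-154 and miR-410, whose hairpin closes the series.

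The mature sequences of the detected members are shown because no seed is shared between them; they come from RefSeq (GRCm38.p6), with bases 2 to 8, the seed that pairs with a target, in capitals. For miR-127, miR-136, miR-154, miR-300, miR-329, miR-379, miR-410 and miR-494 the array gives no arm, and the strand shown is the one that later names assign to the unstarred miRNA. For miR-299* both strands are given, since a star alone does not name the arm. miR-376c is named only.
miR-337-5p: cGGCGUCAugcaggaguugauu
miR-337-3p: uCAGCUCCuauaugaugccuuu
miR-127-3p: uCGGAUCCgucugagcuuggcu
miR-434-3p: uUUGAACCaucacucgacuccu
miR-136-5p: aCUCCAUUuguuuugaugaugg
miR-379-5p: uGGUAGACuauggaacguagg
miR-299a-5p: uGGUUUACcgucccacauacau
miR-299a-3p: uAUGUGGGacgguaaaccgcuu
miR-329-3p: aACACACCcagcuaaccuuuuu
miR-494-3p: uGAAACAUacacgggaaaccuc
miR-300-3p: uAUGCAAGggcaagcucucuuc
miR-154-5p: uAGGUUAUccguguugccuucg
miR-410-3p: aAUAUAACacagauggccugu

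The 13 sequences carry 13 different seeds. Over the 82 mature sequences of the matched hairpins there were 79 seeds, and only 3 seeds occurred more than once, in miR-379-3p with miR-411-3p, in miR-410-5p with miR-494-5p and in miR-376b-5p with miR-376c-5p. Beyond the matched hairpins, the seed of miR-379-5p recurs in miR-1193-5p, a further miRNA of the domain, and that of miR-299a-3p in miR-299b-3p. Outside the domain, the seed of miR-410-3p recurs in miR-344d-3p and miR-344e-3p and that of miR-329-3p in miR-362-3p. The median GC content was 50% for the domain's mature sequences and 52.2% for the 1738 mature mouse sequences of the table. miR-127-3p spans chr12:109592888-109592909 and miR-410-3p spans chr12:109743764-109743784, both on the plus strand of GRCm38.p6; the array design names the older mm9 build.

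Because the maternal transcripts run in one direction through the hairpins, the promoter of Meg3, the first of them, is shown (RefSeq, GRCm38.p6, plus strand, chr12:109540746-109541045, 250 bases before to 50 after the start).
Meg3 promoter: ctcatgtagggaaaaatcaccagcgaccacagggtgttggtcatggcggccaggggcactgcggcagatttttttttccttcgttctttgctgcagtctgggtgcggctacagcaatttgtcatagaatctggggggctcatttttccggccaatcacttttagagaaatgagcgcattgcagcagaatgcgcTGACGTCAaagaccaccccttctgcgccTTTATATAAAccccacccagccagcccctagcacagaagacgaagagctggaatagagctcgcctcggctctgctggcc

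Capitals mark matches on either strand to the cyclic-AMP response element (CRE, TGACGTCA) and to the TATA box (TATAAA). The CRE begins 57 bases before the start, and 1.79% of the 32851 promoter windows of the table hold one. The TATA box has 2 overlapping matches, which begin 29 and 25 bases before the start, and 13.6% of windows hold at least 1. The E-box (CANNTG) bound by myogenic factors, held by 72.3% of windows, and the MEF2 consensus, held by 3.19%, had 0 matches in this window. These are letter matches, and binding was not measured.

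Muscle RNA was checked by its defining miRNAs: 7 of 8 muscle fibre names were detected, with miR-1 at 4.11 or above and miR-133a at 3.71 or above on every array on the relative log2 scale, and miR-499 was detected on 0 arrays. This scale is the processed spot intensity divided by the array's 75th percentile over 152 probes detected on all arrays, with a floor at −5.95; levels of different miRNAs cannot be set against each other on it, because each probe binds with its own strength. The number of mouse miRNAs detected ran from 112 to 147 on the control arrays and from 102 to 131 on the diabetic arrays. The domain's members were dim: the unscaled intensity of the 10 tested ones ran from 0.727 to 132 over the arrays, while the 75th percentile was lowest on diabetic 4 and highest on control 2, at 618. Of their 80 values 8 lay at the floor.

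Detection of the domain differed most between single arrays. On control 4, 13 of the 68 names were detected, and on diabetic 4, 1 was, miR-494. The other arrays lay close together, with 10 on control 1, 9 on control 2, 7 on control 3, 10 on diabetic 1, 10 on diabetic 2 and 9 on diabetic 3. Control 4 also had the most mouse miRNAs detected, 147, and diabetic 4 the fewest, 102, with the lowest 75th percentile of the 8. By the scanner software's own detection flag, the domain had 18 names on control 4, 4 on diabetic 4 and 11 to 13 on each other array. The part of overall brightness in the detection of the domain was not tested. Among tested miRNAs, 9 of 10 members and 15 of 116 others were not detected on diabetic 4.

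**Figure D1:**
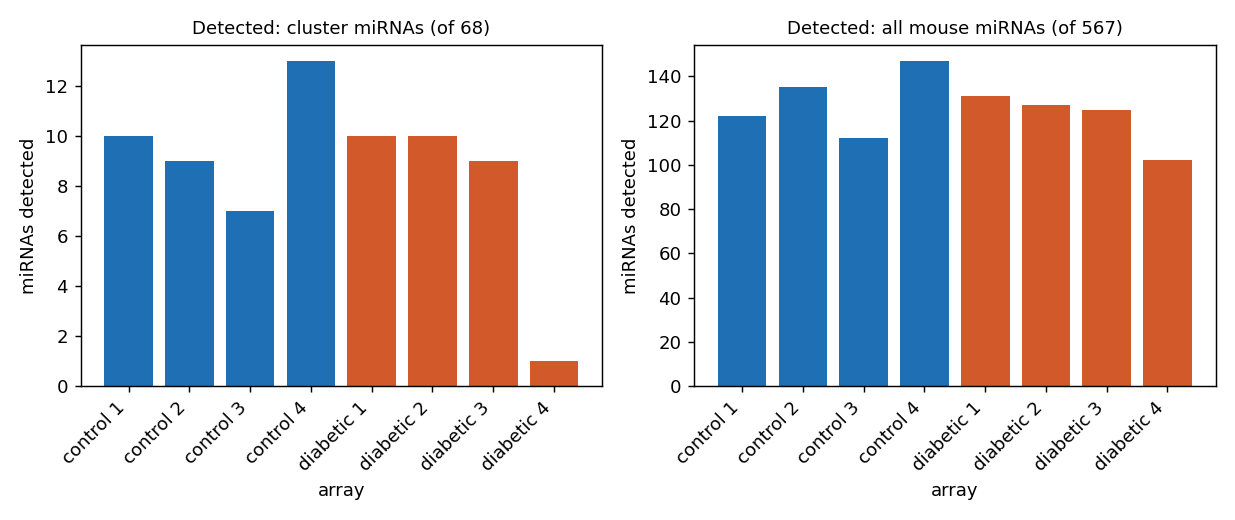
Bars give the number of miRNAs detected on each array, for the 68 names of the domain (left) and all 567 mouse miRNAs (right), with control arrays in blue and diabetic arrays in orange. The domain had 13 detected names on control 4 and 1 on diabetic 4, and 7 to 10 on the other arrays.

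The comparison asked whether the domain's miRNAs differ between diabetic and control muscle. Among the 10 tested members, 0 passed the threshold (limma, adjusted p under 0.05 over all 126 tested miRNAs), in a comparison in which 0% of tested miRNAs passed as lower and 4.76% as higher. At an unadjusted limma p under 0.05, 5 of 10 members had lower values on the diabetic arrays and 0 higher ones, against 10.3% of all tested miRNAs lower and 6.35% higher. The difference was negative for 9 of 10 members, against 54.0% of all tested, and the groups did not overlap for 0 members, against 8.73% of all tested. The median difference was −0.69 over the members and −0.06 over all tested miRNAs. In bulk muscle, fewer cells of a type and less RNA per cell cannot be told apart.

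These counts moved with the arrays kept and with the processing. The shares of all tested miRNAs given above hold for the main settings and are not given for the others. For some settings the median over all tested miRNAs stands beside that of the members. Without control 4 the members with a negative difference numbered 7 of 10 and those at an unadjusted limma p under 0.05 numbered 1. The latter count was also 1 without control 1 and 1 without diabetic 4, 3 without diabetic 2 and 3 without diabetic 3. It was 5 without control 3, 5 without diabetic 1 and 7 without control 2. With all 8 arrays it was 7 under limma array weights, and 5 with the median of detected probes or total gene signal. Without control 1 and control 4 together, 7 differences were negative and the count at an unadjusted limma p under 0.05 was 0. The median was then −0.09, against 0.19 over all tested miRNAs. That pair was the highest for 8 of 10 members, so leaving it out raises their differences in any case. Without control 4 and diabetic 4 together, a choice made after seeing the data, the median was −0.28, against 0.02 over all tested. The count at that p was again 0. Control 4 was the highest array for 9 of 10 members, against 31.7% of all tested. Diabetic 4 alone was the lowest for 5 of 10, against 7.94%. Leaving both out thus also raises most of the members' differences in any case. The values of single members without these arrays, given below, carry the same limit. With all 8 arrays, the count at an unadjusted limma p under 0.05 was 1 with the percentile over all mouse probes, 3 with quantile normalization and 0 with normexp background correction. In these settings the median of the members was −0.40, −0.37 and −0.05, and that of all tested miRNAs 0.26, 0.09 and 0.01. The normexp setting adds 50 to each intensity before scaling, which draws the levels of dim miRNAs together. Over the same 10 members the count was 0 with no detection filter and 2 with detection on at least 1 array. It was 3 with the floor at the 5th percentile or with the brightest probe alone. Detection on all arrays of a group left 7 members, of which 3 were counted.

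**Figure D2:**
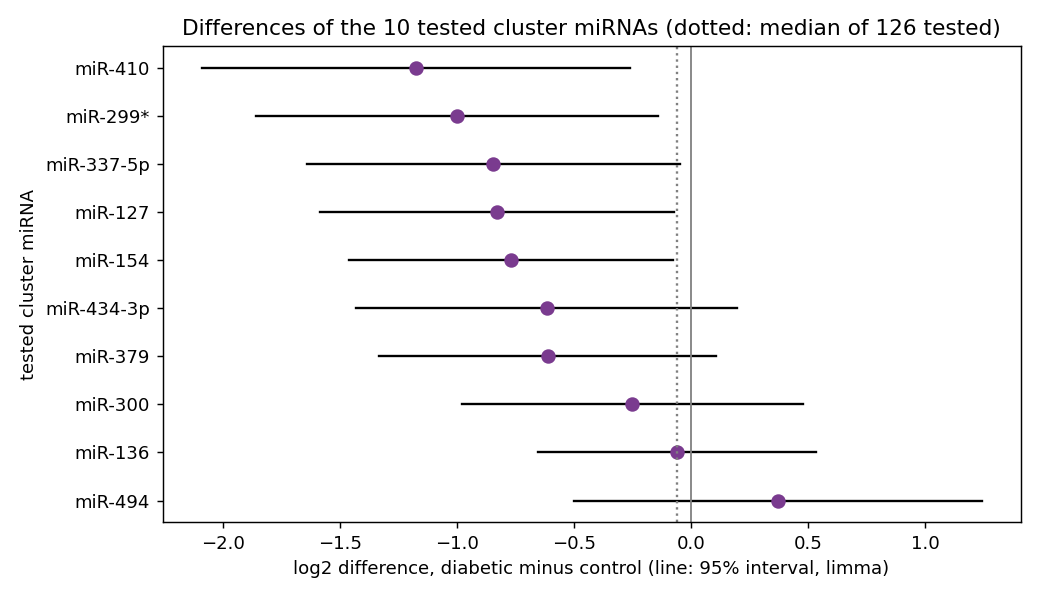
Points give the log2 difference (diabetic minus control) of each tested member and lines its 95% limma interval; the dotted line is the median of all 126 tested miRNAs. The 5 uppermost intervals lie below 0 before adjustment, and 0 members passed after it.

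miR-410 had the most negative difference of the members. The seat of this miRNA is the last hairpin of Mirg, and it has been studied in insulin-secreting cells. Its log2 level was −3.56 on control 1, −4.29 on control 2, −3.66 on control 3 and −2.23 on control 4, against −4.34 on diabetic 1, −4.42 on diabetic 2, −4.21 on diabetic 3 and −5.48 on diabetic 4. Control 4 stood above and diabetic 4 below all others, while the groups overlapped through control 2. The difference was −1.18 (SE 0.42, 95% interval −2.09 to −0.26, limma adjusted p = 0.168), with group means of −3.44 ± 0.87 and −4.61 ± 0.58 (SD, n = 4). Both of its probes were detected on 7 arrays and gave −1.20 and −1.16. Without control 4 the difference was −0.78, and without control 4 and diabetic 4 it was −0.49.

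miR-299* comes from the third hairpin of the Mirg-side stretch. Its level was −3.04 on control 1, −4.35 on control 2, −3.85 on control 3 and −2.52 on control 4, and on diabetic 1 to 4 it was −4.09, −4.08, −4.41 and −5.19. Again control 4 and control 1 were high and diabetic 4 was low, with control 2 inside the diabetic range. The difference was −1.001 (SE 0.39, limma adjusted p = 0.237), or −0.69 without control 4 and −0.45 without control 4 and diabetic 4. Its brighter probe was detected on 7 arrays and gave −0.97, and the other was detected on 0 arrays.

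miR-127 and miR-337-5p lie in the first stretch, near Rtl1; miR-127 is transcribed antisense to Rtl1 and directs cleavage of its mRNA. miR-127 stood at −4.18 and −4.15 on control 1 and control 4 but at −5.51 and −5.49 on control 2 and control 3, and its diabetic values ran from −5.95 (the floor) to −5.29. The 2 remaining controls thus fell inside the diabetic range. The difference was −0.83 (SE 0.35, limma adjusted p = 0.237), and −0.16 without control 1 and control 4. For miR-337-5p the controls 1 to 4 stood at −4.95, −5.85, −5.35 and −3.82, and the diabetic arrays at −5.61, −5.85 and at the floor on both others. That gave a difference of −0.85 (SE 0.36, limma adjusted p = 0.247), and −0.46 without control 4.

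miR-154, a miRNA studied in lung fibroblasts and fibrosis, was the fifth member with an unadjusted p under 0.05. Its level was −4.54, −5.10, −4.92 and −3.75 on control 1 to 4, and −5.06, −5.18, −5.21 and −5.95 (the floor) on diabetic 1 to 4. Control 2 lay between diabetic 1 and diabetic 2, so the groups overlapped, and diabetic 4 lay below all others. The difference was −0.77 (SE 0.32, limma adjusted p = 0.237), and −0.50 without control 4.

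Of the members with less separated groups, miR-434-3p, whose hairpin neighbours miR-127, had a difference of −0.62 (SE 0.37), and miR-379, the first hairpin of the Mirg-side stretch, one of −0.61 (SE 0.33). Without control 1 and control 4 these were −0.007 and −0.02. That pair was the highest for both miRNAs, so leaving it out raises the difference in any case. miR-300 had a difference of −0.25 (SE 0.33) and miR-136 one of −0.06 (SE 0.27), and the limma adjusted p of the 4 ran from 0.407 to 0.887. The signs of miR-300 and miR-136 were positive without control 4, at 0.04 and 0.20, and when all mouse probes entered the scaling percentile, at 0.07 and 0.21. The 95% interval of miR-300, −0.98 to 0.48, and that of miR-136, −0.66 to 0.53, include differences in either direction.

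miR-494 was the single tested member with a positive difference. It has been reported to repress mitochondrial biogenesis factors in myoblasts, and its hairpin lies in the same stretch as that of miR-410. Its level was −1.22 on control 1, −2.69 on control 2, −2.91 on control 3 and −3.41 on control 4, and −2.06, −2.30, −2.54 and −1.87 on diabetic 1 to 4. The array on which most other members were brightest, control 4, was its lowest, and diabetic 4 was its second highest. The difference was 0.37 (SE 0.40, limma adjusted p = 0.699), or 0.81 without control 1, 0.08 without control 4 and −0.02 without control 4 and diabetic 4. Both probes were detected on all 8 arrays and gave 0.39 and 0.30.

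**Figure D3:**
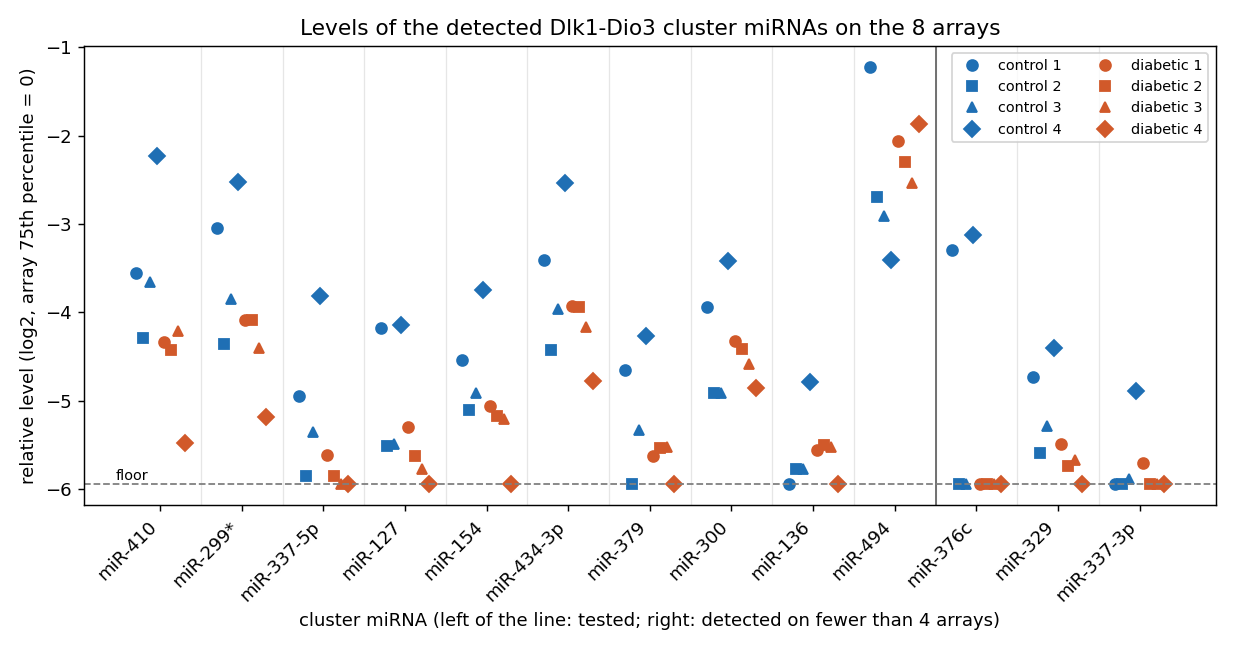
Points give the relative log2 level of the 13 detected members on each array, with control arrays in blue, diabetic arrays in orange and 1 marker shape per replicate number; the dashed line is the floor. Control 4 (blue diamond) is the highest point for 9 of the 10 tested members, against 31.7% of all tested miRNAs, and the lowest for miR-494.

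The members also shared an order of arrays. Control 1 and control 4 were the highest pair of arrays for 8 of the 10 tested members, against 30.2% of all tested miRNAs. Diabetic 4 alone was the lowest array for 5 of 10 members, against 7.94% of all tested, and for 3 more it shared the floor with another array. The summed linear level of the 9 tested members other than miR-494 was 0.553, 0.282, 0.369 and 0.943 on control 1 to 4 and 0.341, 0.326, 0.303 and 0.202 on diabetic 1 to 4. Control 2 lay within the diabetic range and control 3 just above it. The order depended on the scaling: control 1 and control 4 were the highest pair for 5 of 10 members with the percentile over all mouse probes, 4 of 10 with quantile normalization and 3 of 10 without scaling, where other tested miRNAs numbered 1, 10 and 1 of 116. Diabetic 4 was the lowest array for 6 of 10 members and 2 of 116 others with the percentile over all mouse probes. With quantile normalization it was the lowest for 8 of 10 members and 12 of 116 others. With the median of detected probes these were 7 of 10 and 16 of 116. Diabetic 4 was the lowest array for 0 of 10 members and 1 of 116 others with normexp, and without scaling for 7 of 10 members and 78 of 116 others. The 50 added by normexp exceeds most intensities of the members. After division by the array's percentile it raises dim levels most where that percentile is lowest. The normexp count therefore cannot show the order of the arrays. The median SD of the log2 level was 0.79 on the control and 0.28 on the diabetic arrays for the members, and 0.43 and 0.23 for all tested miRNAs. The floor limits the spread of some members. It held miR-127, miR-136, miR-154, miR-337-5p and miR-379 on diabetic 4 and miR-337-5p on diabetic 3. Among the controls it held miR-136 on control 1 and miR-379 on control 2.

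The miRNAs of fibroblasts and stroma were also highest in sum on control 1 and control 4. All 5 tested miRNAs of that list (miR-143, miR-199a-5p, miR-199b, miR-199b* and miR-214) had negative differences, with a median of −0.45, and 0 passed (limma). Their summed level was 1.48 on control 1 and 1.41 on control 4, 0.870 and 0.860 on control 2 and control 3, and 0.845 to 0.901 on the diabetic arrays. The sum is made up mostly of miR-199b and miR-199b*. miR-143 had another order, with −3.04, −3.21, −2.45 and −2.27 on control 1 to 4 and −2.85, −2.88, −2.99 and −2.37 on diabetic 1 to 4. Its difference was −0.03 (limma adjusted p = 0.940), control 1 was its second lowest array and diabetic 4 its second highest. miR-145 was detected on 0 arrays. miR-206, a muscle miRNA known to rise in regeneration, stood at 0.12, 0.73, 1.42 and 1.497 on control 1 to 4. On diabetic 1 to 4 it stood at 0.01, −0.01, 0.20 and −1.75, so that control 4 was its highest and diabetic 4 its lowest array too. The muscle fibre list as a whole had another order. Of its 7 tested miRNAs, miR-206 among them, 3 had negative and 4 positive differences. Their summed level was highest on diabetic 4, at 110.85, and lowest on control 2, at 54.488. Of 116 other tested miRNAs, 3 had both control 1 and control 4 as the highest pair and diabetic 4 as the lowest array, namely miR-128, miR-199a-5p and miR-199b (named after their values were seen). The part of stromal cells in the levels of the domain was not tested.

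**Figure D4:**
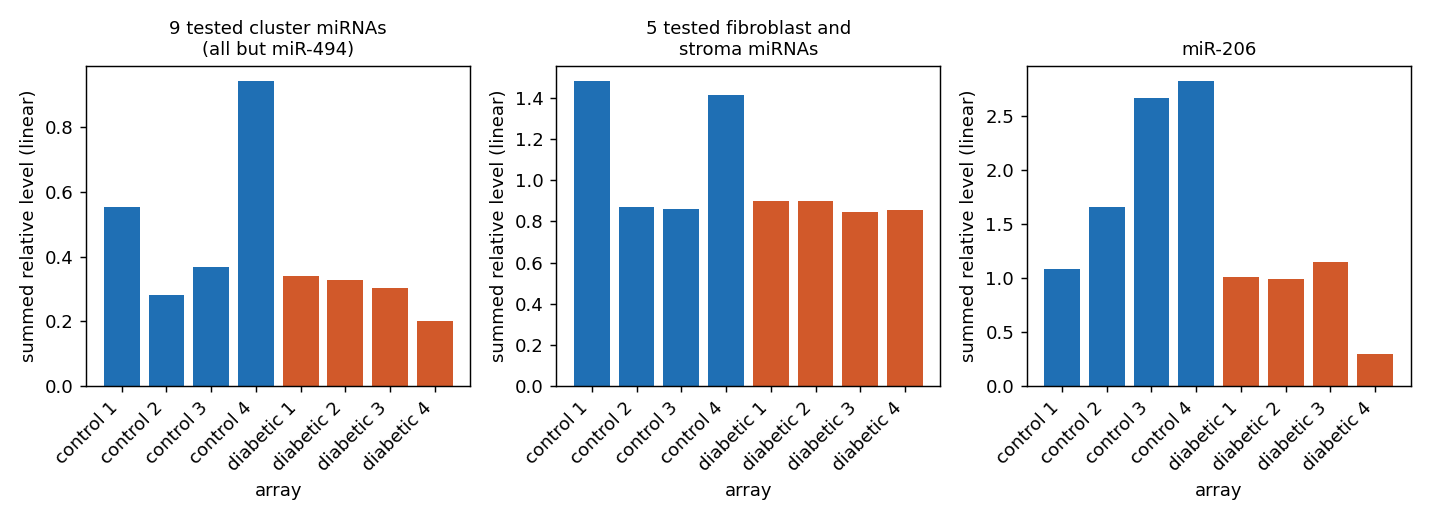
Bars give, for each array, the summed relative level on a linear scale of the 9 tested members other than miR-494 (left), of 5 tested fibroblast and stroma miRNAs (middle) and the level of miR-206 (right), with control arrays in blue and diabetic arrays in orange. Control 1 and control 4 are the highest bars of the left and middle panels, and control 4 is the highest and diabetic 4 the lowest of the right one. The summed level of the 7 tested muscle fibre miRNAs, which is not drawn, was highest on diabetic 4.

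In the lists of other cell types, control 1 and control 4 were not the highest pair by summed level. The endothelial miR-126-3p ran from 0.67 to 1.41 on the control and from 0.84 to 1.29 on the diabetic arrays. The leukocyte list (3 tested of 8 names, 0 passing) summed to 1.85 on control 2 and to 0.347 to 0.735 on the other controls, against 0.189 to 0.628 on the diabetic arrays. The red-cell list, with miR-451 as its tested member, was also highest on control 2, at 2.35, against 0.676 to 1.49 on all other arrays. Of the nerve and brain list the defining miR-124, miR-9, miR-138 and miR-219 were detected on 0 arrays; miR-128 ran from −3.27 to −2.48, and miR-338-3p had a difference of 1.41 (limma adjusted p = 0.058). Of the liver list, 2 of 3 names were tested and 0 passed, with miR-122 highest on control 4, at −2.99, and next on diabetic 4, at −3.67.

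miR-376c split the control arrays. Members of the miR-376 family are known for A-to-I editing in brain. miR-376c was detected on control 1 and control 4, at −3.29 and −3.12, and lay at the floor on the other 6 arrays. All 4 of its probes showed this: on control 1 their unscaled intensities ran from 26.0 to 36.6 and on control 4 from 25.3 to 51.7, while on each other array they ran between −3.17 and 15.5. Detected on 2 arrays, it was not tested. No fold is given, since control 2 and control 3 lay at the floor like the diabetic arrays. By the scanner software's flag, miR-376c was detected on 3 control and 3 diabetic arrays. miR-376a and miR-376b were detected on 0 arrays.

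**Figure D5:**
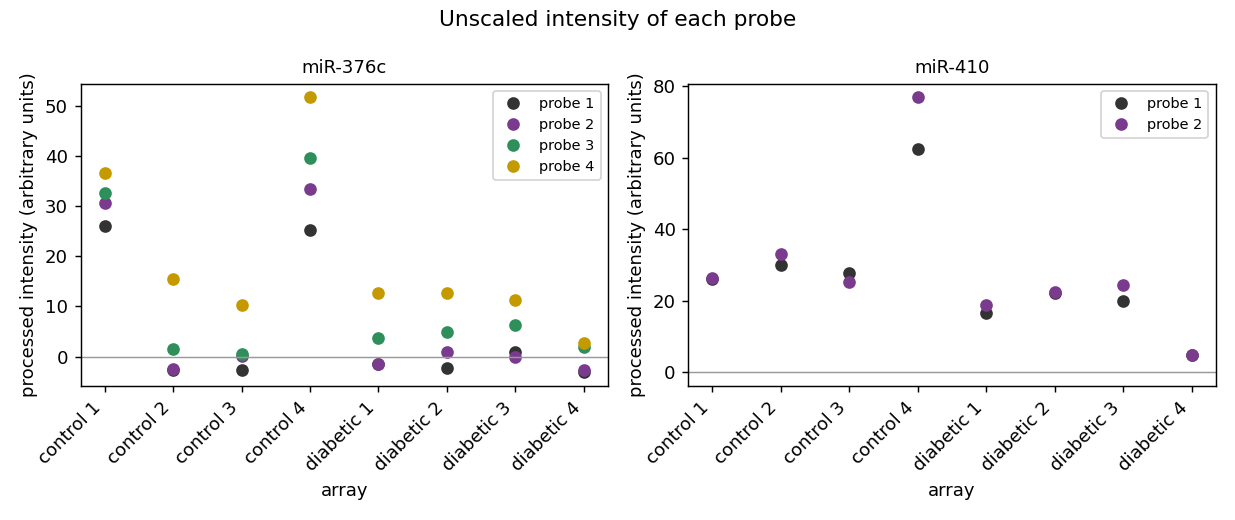
Points give the unscaled processed intensity of each probe of miR-376c (4 probes, left) and miR-410 (2 probes, right) on the 8 arrays. All 4 probes of miR-376c lie above 25 on control 1 and control 4 and at or below 15.5 elsewhere, and both probes of miR-410 are highest on control 4 and lowest on diabetic 4.

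The other 2 members detected but not tested passed the detection rule on control 4 alone, while the scanner software's flag called miR-329 on 4 control and 3 diabetic arrays and miR-337-3p on 3 and 3. miR-329, which shares its seed with miR-362-3p, stood at −4.40 on control 4, −4.74 on control 1 and −5.95 to −5.29 elsewhere. miR-337-3p, the other strand of the hairpin of miR-337-5p, stood at −4.89 on control 4 and at −5.95 to −5.71 on the other arrays. By that rule both were not well above background on the diabetic arrays, and no fold is given because the control mean lay below the detection bound.

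Agreement between probes set a limit on the dim members. The tested members had 20 probes, of which 7 were detected on 0 arrays and 4 lay at the floor throughout. Of the 16 that varied, 14 had negative differences and 2 positive ones, the latter both of miR-494. Among the 14, 1 probe each of miR-154, miR-299* and miR-300 was detected on 0 arrays and lay at the floor on every diabetic array. Probes of the same miRNA are not independent, and the share over all mouse probes was not counted. For miR-127, miR-136, miR-337-5p and miR-379, 1 of the 2 probes lay at the floor on every array. On control 4 the other probe of miR-127 read 34.2 ± 3.34 (SD over 9 spots of the array) and on diabetic 4 6.18 ± 3.30 (SD over 10 spots), both unscaled.

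The remaining names were detected on 0 arrays by the rule on spots above background: miR-127*, miR-134, miR-136*, miR-154*, miR-299, miR-300*, miR-323-3p, miR-323-5p, miR-341, miR-369-3p, miR-369-5p, miR-370, miR-376a, miR-376a*, miR-376b, miR-376b*, miR-376c*, miR-377, miR-380-3p, miR-380-5p, miR-381, miR-382, miR-382*, miR-409-3p, miR-409-5p, miR-411, miR-411*, miR-412, miR-431, miR-431*, miR-433, miR-433*, miR-434-5p, miR-485, miR-485*, miR-487b, miR-495, miR-496, miR-539, miR-540-3p, miR-540-5p, miR-541, miR-543, miR-544, miR-665, miR-666-3p, miR-666-5p, miR-667, miR-668, miR-673-3p, miR-673-5p, miR-679, miR-758, miR-770-3p and miR-770-5p. They were not detectable at this signal, which does not show them absent. The scanner software's flag called 5 of them, miR-300*, miR-377, miR-411, miR-433* and miR-485*, on 1 control array each.

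The miRNAs around and beside the domain gave few comparators. Of the further domain miRNAs listed for comparison, miR-453 and miR-493 were on the array and detected on 0 arrays; miR-882, also of the domain, is in neither list. At other imprinted loci, 1 of 9 names was tested: miR-296-5p, from the Gnas region, had a difference of −0.23 (limma adjusted p = 0.699). miR-335 of Mest and miR-675 of H19 were detected on 0 arrays. Of 25 names of the miR-297, miR-466, miR-467 and miR-669 families, many of which come from an intron of the imprinted gene Sfmbt2, 3 were tested and 0 passed, with a median of −0.24. The summed level of these 3 was 0.737 on control 4, 0.342 on control 1 and 0.140 to 0.297 on the other arrays, so control 1 and control 4 were the highest pair here too. Of the 25 names 12 were detected. Those not tested were each detected on 1 array and were all highest on control 4. Among them, miR-466f-3p and miR-466g stood at −1.75 on control 4 and miR-467a* at −2.79, and all 3 lay at the floor on every other array. On the same chromosome but outside the domain, miR-345-5p had a difference of 0.19 (limma adjusted p = 0.772) and ran from −4.30 to −3.37 over the 8 arrays. miR-342-3p, also in the leukocyte list, had one of −0.80 (limma adjusted p = 0.061). The summed level of these 2 was 0.235 on control 1, 0.185 on control 4 and 0.126 to 0.166 on the other arrays. Control 1 and control 4 were thus the highest pair for this sum as well, and for miR-342-3p alone, at −2.85 and −3.31. miR-345-5p was highest on diabetic 1.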

How the data were processed

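Skeletal muscle RNA was hybridised to 8 one-colour arrays (4 control, 4 diabetic by title). Per the file headers, Feature Extraction 10.5.1.1 made the deposited intensities; the processed intensity has a spatially detrended background subtracted and is not normalized between arrays. The deposited flags of 0 or 1 are other values of the scanner software, per the file headers. Outlier spots were dropped, and spots of a probe averaged; a probe counted as detected where at least 50% of its spots were well above background. Intensities were scaled per array to the 75th percentile of the 152 probes that every array detected. Probes of a miRNA were averaged, floored at 0.0162 (1st percentile of detected levels) and converted to log2. The 126 miRNAs detected on at least 4 arrays were fitted with limma 3.58.1 (R 4.3.3; group as the single term; Benjamini-Hochberg over 126; threshold 0.05), a step tested on simulated data. All tested members were named with values, other detected members with their levels. The numbers of the domain, the marker lists and the alternatives were chosen with earlier results of these data known. Alternatives changed the scaling, background correction, probe summary, detection filter, floor, model terms and arrays kept. The number of arrays limits the precision. Sequences are from RefSeq (GRCm38.p6).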

Additional observations from a re-analysis of the deposited data

Results flagged for a closer look

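In 5 of 24 groups of 4 values examined, 1 array stood apart from the other 3 by more than Dixon's 95% critical value, where chance flags about 1 in 20; the groups are not independent, since they share arrays. Diabetic 4 lay apart in 4 of them: with 1 domain miRNA detected, against 9 or 10 on the other diabetic arrays, and at −5.95 (the floor) for miR-136, −5.95 for miR-154 and −5.48 for miR-410. Control 4 lay apart once, at −4.79 for miR-136, against −5.95 to −5.77 on the other controls.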

How the results depend on the processing

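The counts of passing members, 0 lower and 0 higher, were the same under all 28 alternatives, 2 of which (dropping control 4 with diabetic 4, and the scanner software's own detection flag) were chosen after seeing the data. The median log2 difference of the members, −0.69, ran from −0.93 to −0.41 when 1 array was left out. It was −0.0541 with normexp and its offset of 50, 0 over all 68 names without a filter and 0.37 where detection on all 8 arrays left miR-494 alone. The sign turned for miR-136 with the percentile over all mouse probes (0.21), quantile normalization (0.20), normexp (0.0159), without control 4 (0.20), without diabetic 4 (0.04), without control 1 and control 4 (0.14) and without control 4 and diabetic 4 (0.30). It turned for miR-300 with the percentile over all mouse probes (0.0711), without control 4 (0.0387), without control 1 and control 4 (0.36) and without control 4 and diabetic 4 (0.14), and for miR-494 in the last of these (−0.0237). Over the single arrays left out, miR-136 ran from −0.188 to 0.198 and miR-300 from −0.457 to 0.0387. The cause was not tested. The median of all tested miRNAs moved from −0.06 to 0.26 with the percentile over all mouse probes. Same-numbered arrays share a slide column; their deviations correlated at 0.21, 0.08, 0.51 and −0.29, so the numbers were not taken as pairs. With the replicate block 0 members passed, the member median stayed at −0.69, the smallest adjusted p of a member was 0.077 (limma, miR-410) and the count of all miRNAs passing was 10, against 6.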
